A study of Mus musculus with 8 samples.

Results

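Estradiol given alone for 2 hours was compared with no hormone in 7438 cells, a mouse mammary cell line. The comparison uses the 2 arrays titled as E2 and the 2 titled as untreated, chosen by their titles, so 4 of the 8 arrays of the series. The line was engineered to make a green fluorescent glucocorticoid receptor (GFP-GR) and a cherry fluorescent estrogen receptor (Ch-ER), both from a promoter that tetracycline holds off. All cells, untreated ones included, sat in charcoal-stripped serum and had been without tetracycline for 24 hours, so every array comes from cells induced to carry both receptors. The E2 cells received 100 nM estradiol and the untreated cells received no hormone. No group is labelled as given vehicle alone, so an effect of vehicle or handling cannot be told apart from that of estradiol. The other 4 arrays come from cells given 100 nM dexamethasone (Dex), a synthetic glucocorticoid. Dex was given alone or with 100 nM estradiol (Dex+E2), also for 2 hours. The receptors are supplied from transgenes, and the labels do not say whether the line is a single clone or whether replicate arrays stand for separate cultures. The p-values therefore measure only how these arrays spread, which may be technical.

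Estradiol enters the cell and binds estrogen receptor alpha, a ligand-activated transcription factor. The bound receptor settles on DNA at estrogen response elements or through other factors, recruits coactivators and changes transcription of its target genes. In the mammary gland this hormone is known for driving growth of the ductal epithelium, and Greb1, Pgr, Myc and Ccnd1 are textbook targets in estrogen-responsive breast cells. The glucocorticoid receptor belongs to the same family and uses a related but different DNA element. At 2 hours, changes in RNA level lie closer to the first response to a hormone than to later cell growth.

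The values are log2 probe set signals for 18194 genes, each read from 1 probe set. The replicate arrays correlated at 0.9981 over genes in the untreated group and 0.9981 in the E2 group. The difference between replicates had a standard deviation of 0.156 in the former and 0.159 in the latter, and 56 and 95 genes differed by over 0.5. The Dex+E2 replicates differed more (0.197, with 390 genes over 0.5). E2 replicate 2 and Dex+E2 replicate 1 are placed in their groups by title and treatment label, but their free-text descriptions speak of receptor immunoprecipitation, so counts are also given without each. Of 11 luminal epithelial markers, 1 (Epcam) had a mean untreated signal of at least 6 log2 units, while Cdh1 lay at 3.24, Krt18 at 4.45 and Krt8 at 5.88. Of 16 fibroblast and mesenchymal markers 12 reached that level, Vim and Col1a2 among them, as did 4 of 9 basal or myoepithelial, 2 of 10 milk protein, 3 of 10 immune cell and 2 of 9 endothelial or adipocyte genes. Signals of different probe sets are not on a common scale, so these counts only describe the cells. The mean signal over the luminal list ran from 5.03 to 5.10 on the untreated arrays and from 4.98 to 5.02 on the E2 arrays, and over the mesenchymal list from 8.85 to 8.89 and from 8.82 to 8.88. RNA was taken from whole cultures, so a change in the mix of cells and a change of RNA per cell cannot be told apart.

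Estradiol raised 19 of 18194 genes and lowered 0, at a Benjamini-Hochberg adjusted p under 0.05 in limma, a linear model that pools the spread over genes. That is 0.104% of the genes tested. Without adjustment, 645 genes (3.55%) were higher and 479 (2.63%) lower at p under 0.05. Over all genes the median difference was -0.011 log2 units and its standard deviation 0.134. The genes that passed were higher by 0.62 to 1.97 log2 units, where 1 unit is a doubling, and 12 of them at least doubled. In each of the 19, both E2 arrays lay above both untreated arrays, which 16.6% of all genes show. The 19 were picked on these same arrays, so this adds no support.

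**Figure D1:**
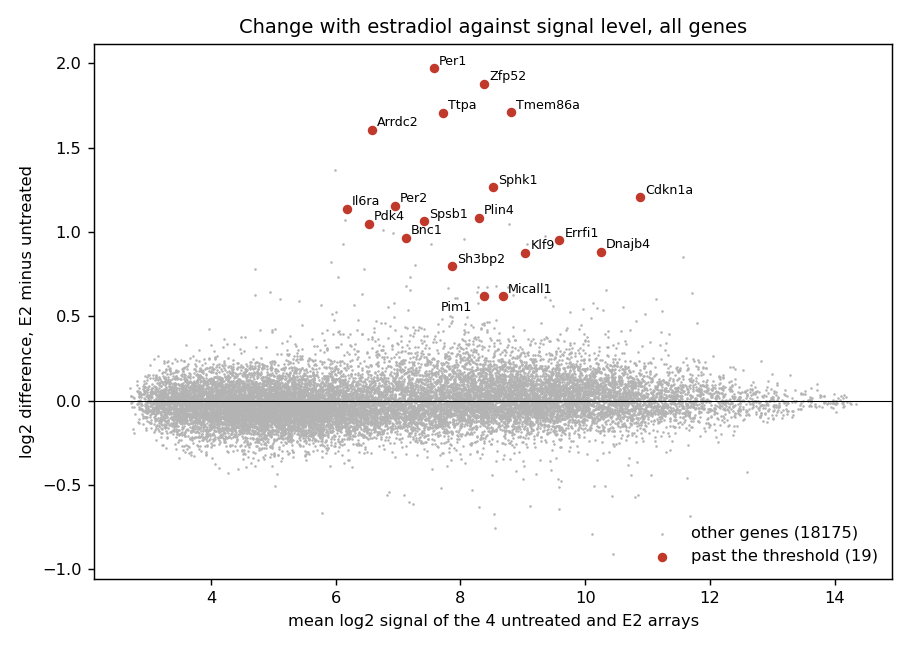
Difference between E2 and untreated cells (log2 units, vertical) against the mean log2 signal of the 4 arrays (horizontal) for each of 18194 genes. Red points are the 19 genes past the threshold, all above 0, from Pim1 and Micall1 at 0.62 to Per1 at 1.97; grey points are the other 18175 genes.

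Per1 had the largest rise of the 19 genes, and Per2 rose too. Per1 and Per2 encode repressors that close the feedback loop of the circadian clock, and both are also early hormone-responsive genes. Per1 had log2 signals of 6.72 and 6.45 on the untreated arrays and of 8.62 and 8.50 on the E2 arrays. It rose by 1.97 ± 0.13 (SE, n = 2 arrays a group), a 3.92-fold change (limma, adjusted p = 0.000267). Per2 read 6.48 and 6.26 without hormone and 7.38 and 7.66 with estradiol, a rise of 1.16 ± 0.11 (adjusted p = 0.00388). In both genes the gap between the groups was wider than any gap between replicates. Per3, the third family member, read 5.94 and 5.98 in untreated cells and 5.63 and 5.88 in E2 cells and did not pass (-0.21 ± 0.15, adjusted p = 0.889). Of 21 measured clock genes, Per1 and Per2 were the 2 that passed, against 0.104% of all genes, and the list's median was 0.04. The list was chosen with earlier results of these data known. Bhlhe40, a clock-linked repressor, was at 0.53 (adjusted p = 0.217) and Arntl, which encodes the activator BMAL1, at 0.43 (adjusted p = 0.392).

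Cdkn1a encodes p21, an inhibitor of cyclin-dependent kinases. Its signals were 10.23 and 10.32 in untreated cells and 11.26 and 11.70 in E2 cells, a rise of 1.21 ± 0.14 (adjusted p = 0.00846). Errfi1, whose product inhibits the EGF receptor, went from 8.999 and 9.22 to 9.96 and 10.15, a rise of 0.95 ± 0.11 (adjusted p = 0.00703). The arrays of both genes were well apart between groups. Klf9, a zinc finger transcription factor gene, rose by 0.88 ± 0.12, with untreated signals of 8.56 and 8.63 and E2 signals of 9.47 and 9.48. Pim1, a serine/threonine kinase gene that favours survival and cytokine signalling, had the smallest rise, 0.62 ± 0.089, from 8.05 and 8.10 to 8.64 and 8.74.

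Arrdc2, an alpha-arrestin that links membrane proteins to ubiquitin ligases, read 5.81 and 5.74 in untreated cells and 7.10 and 7.66 in E2 cells, a rise of 1.61 ± 0.19. Sphk1, which makes the lipid messenger sphingosine 1-phosphate, went from 7.84 and 7.94 to 8.97 and 9.34, a rise of 1.27 ± 0.13. Spsb1, a substrate adaptor of a ubiquitin ligase, went from 6.82 and 6.95 to 7.82 and 8.08, a rise of 1.06 ± 0.10. In these 3 genes E2 replicate 2 was the higher of the E2 arrays. Il6ra, the interleukin 6 receptor subunit, rose by 1.14 ± 0.15 from signals of 5.81 and 5.41, the untreated pair that lay farthest apart among the 19 genes, to 6.59 and 6.90. Sh3bp2, a signalling adaptor, went from 7.42 and 7.502 to 8.32 and 8.19, a rise of 0.80 ± 0.11. Dnajb4, a co-chaperone of Hsp70, went from 9.84 and 9.78 to 10.63 and 10.75, a rise of 0.88 ± 0.091. Micall1, which acts in endosome recycling, went from 8.46 and 8.28 to 8.96 and 9.02, a rise of 0.62 ± 0.088. The largest adjusted p of the 19 genes was 0.0353 (limma), shared by Ttpa and Pim1. None of the other members of the small adaptor and sphingosine families passed. Of 6 alpha-arrestins, 4 SPSB genes and 16 sphingosine pathway genes 1 each did, with list medians of 0.03, 0.02 and 0.03. Over all genes 0.104% passed. These lists were chosen with earlier results of these data known, so the 1 in each carries no weight.

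The genes that rose included 4 of lipid or fuel handling. Plin4, a coat protein of lipid droplets, went from 7.76 and 7.74 to 8.74 and 8.93, a rise of 1.08 ± 0.10. Pdk4, a kinase that restrains oxidation of pyruvate, went from 6.03 and 5.97 to 6.98 and 7.13, a rise of 1.05 ± 0.15. Tmem86a, an enzyme that cleaves ether lysolipids, had almost identical untreated signals of 7.95 and 7.95 and E2 signals of 9.49 and 9.83, a rise of 1.71 ± 0.18. Ttpa encodes the transfer protein for vitamin E. It rose by 1.71 ± 0.25, from 6.78 and 6.94 to 8.15 and 8.99, and its E2 arrays were the farthest apart of the 19 genes. Of 25 measured genes on the lipid droplet and fatty acid list these 3 (Plin4, Tmem86a and Ttpa) passed and the list median was -0.02. Of 24 fuel choice genes Pdk4 passed and the median was 0.03. Over all genes 0.104% passed. Both lists were chosen with earlier results of these data known, so the counts are no evidence of a lipid or fuel response.

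The remaining genes were Zfp52 and Bnc1. Zfp52, a zinc finger gene, read 7.37 and 7.52 in untreated cells and 9.11 and 9.54 in E2 cells, a rise of 1.88 ± 0.13 or 3.68-fold (adjusted p = 0.000267). Bnc1, basonuclin, a zinc finger factor of basal epithelial cells, read 6.50 and 6.77 and then 7.42 and 7.79, a rise of 0.97 ± 0.13 (adjusted p = 0.0297). Zfp52 lies among other zinc finger genes in the RefSeq order of the chromosome, and these were looked at after the value of Zfp52 was seen. Among the 5 protein-coding genes on either side, 8 were measured. They lay 0.01 to 0.63 above untreated and 0 passed. The next gene on one side, Zfp53, was at 0.08 and the next on the other, Zfp948, at 0.63 (8.36 and 8.69 against 8.95 and 9.36, adjusted p = 0.356).

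**Figure D2:**
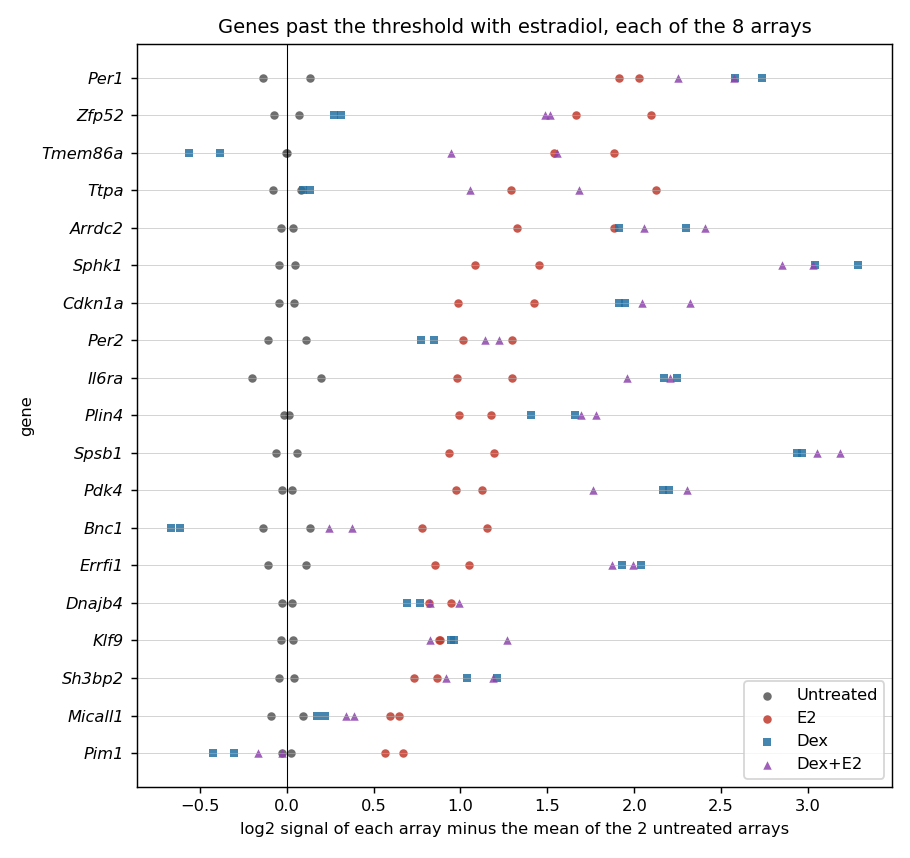
Log2 signal of each of the 8 arrays minus the mean of the 2 untreated arrays (horizontal) for the 19 genes that rose with estradiol (vertical), coloured by group. The E2 points (red circles) lie right of the untreated points in every row. The Dex points (blue squares) lie left of the untreated ones for Tmem86a, Bnc1 and Pim1 and far to the right for Sphk1 and Spsb1.

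The number of genes that passed rested on single arrays. Leaving out untreated replicate 1 left 3 genes and untreated replicate 2 left 2. Leaving out E2 replicate 1 gave 37, and E2 replicate 2, an array with a discordant description, gave 2. It was 11 without either Dex array and 34, with 6 of them lower, without either Dex+E2 array; these 4 arrays enter through the shared estimate of the spread. E2 replicate 2 lay above E2 replicate 1 in 17 of the 19 genes, against 50.4% of all genes. Per1 and Zfp52 passed without each of the 8 arrays in turn, with adjusted p of at most 0.00866 and 0.0162 and changes of 1.83 to 2.11 and 1.67 to 2.10. The other 17 lost the call when either untreated replicate 2 or E2 replicate 2 was dropped, and of these Per2 alone kept it without untreated replicate 1. Their direction held in each of these fits, and the smallest change of any of the 19 was 0.53, for Micall1. Dropping a Dex array ended the call of Ttpa, Il6ra, Bnc1, Pdk4, Klf9, Sh3bp2, Micall1 and Pim1, and dropping E2 replicate 1 that of the last 5 of these. The highest adjusted p of any of these fits was 0.531, for Ttpa when untreated replicate 1 was dropped; it was 0.164 when E2 replicate 2 was. With 2 arrays against 2, an exact permutation test of a single gene cannot give a two-sided p below 0.333.

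Of the 19 genes, 10 have more than 1 probe set, which gives 19 further probe sets. Of these, 16 lay above 0 and 13 were higher at an unadjusted p under 0.05 in the fit of all 45101 probe sets. The second probe set of Zfp52 rose by 1.42 ± 0.099, from 4.06 and 4.22 to 5.49 and 5.64, and that of Cdkn1a was at 1.20 ± 0.18. The probe sets of Spsb1 disagreed, with the other 3 at 0.03, 0.25 and 0.22. So did those of Il6ra (-0.05 for the other probe set) and Per2 (0.18 and 0.37 for the other 2). The probe set used was the brightest over all 8 arrays, hormone-treated ones included. In untreated cells another was brighter for Il6ra (6.25 against 5.61), Per2 (6.41 against 6.37) and Klf9 (8.63 against 8.60). When the probe sets of each gene were averaged, Spsb1 (0.39, adjusted p = 0.233), Il6ra (0.54, 0.101), Klf9 (0.53, 0.151) and Pim1 (0.48, 0.169) no longer passed in limma. Tested one by one, 15 probe sets (0.0333%) rose and 1 (0.00222%) fell; these 16 name 15 genes and 0 lack a single symbol. The probe set that fell reads Ptgs2, which encodes cyclooxygenase 2: 6.29 and 6.29 in untreated cells and 5.50 and 5.28 in E2 cells, -0.90 ± 0.096 (limma, adjusted p = 0.0109). The brighter probe set that stands for Ptgs2 among the 18194 genes was at -0.64 and did not pass (adjusted p = 0.239). Nfkbia, the inhibitor of NF-kappaB, and Resf1, a silencing factor, each had 1 probe set that rose here (0.95 and 0.70) while the brighter probe set used for the gene did not pass.

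The estradiol effect was also measured in other arrays, by setting Dex+E2 cells against Dex cells. The difference shares no array with the one above, but both tests use 1 estimate of the spread from all 8 arrays. Their calls are therefore not independent. It had 2 genes higher (0.011%) and 0 lower in limma, and both belong to the 19. At an unadjusted p under 0.05, 469 genes (2.58%) were higher and 380 (2.09%) lower. Tmem86a read 7.39 and 7.56 with Dex and 8.89 and 9.50 with both hormones, a rise of 1.72 ± 0.18 (limma, adjusted p = 0.0184). Zfp52 read 7.72 and 7.75 and then 8.93 and 8.96, a rise of 1.21 ± 0.13 (adjusted p = 0.0184). Ttpa was 1.26 ± 0.25 higher (adjusted p = 0.308) and Bnc1 0.95 ± 0.13 (adjusted p = 0.0746), without passing. The count fell to 0 when any 1 untreated or Dex array was dropped and was 4 when an E2 array was dropped. Dropping Dex+E2 replicate 1, with the discordant description, gave 81 genes, 34 higher and 47 lower, and dropping Dex+E2 replicate 2 gave 1, with Zfp52 lost (1.19, adjusted p = 0.125). Tmem86a and Zfp52 kept their sign in all these fits, with adjusted p up to 0.533 where the call was lost.

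Of the 19 genes, 13 lay above 0 in Dex+E2 against Dex, against 49.8% of all genes. Their median was 0.17 there and 1.08 for estradiol alone. Over all 18194 genes the 2 estradiol effects correlated at 0.019 (Pearson, across genes, which are not independent replicates).

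**Figure D3:**
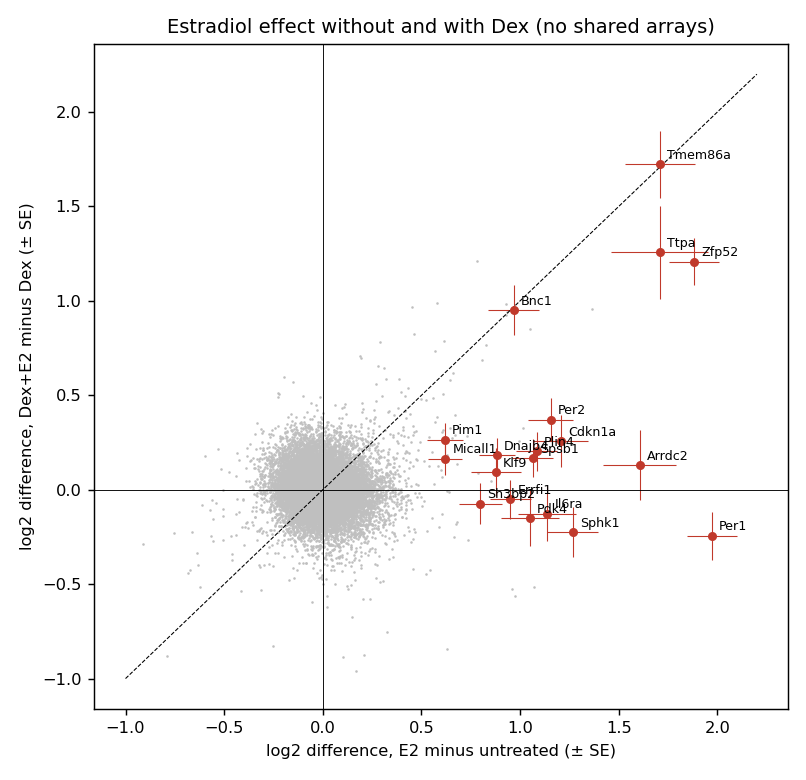
Estradiol effect in Dex-treated cells (Dex+E2 minus Dex, log2 units, vertical) against the effect without Dex (E2 minus untreated, horizontal); grey points are all genes, red points the 19 that passed, bars are SE and the dashed line marks equal effects. Tmem86a and Bnc1 lie on the line, Zfp52 and Ttpa below it at 1.21 and 1.26, while Per1 and Sphk1 lie at -0.24 and -0.22.

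How the same genes stood with Dex alone divides them. Dex alone raised 157 genes (0.863%) and lowered 110 (0.605%). It raised 13 of the 19: Per1, Arrdc2, Sphk1, Cdkn1a, Per2, Il6ra, Plin4, Spsb1, Pdk4, Errfi1, Dnajb4, Klf9 and Sh3bp2, by 0.73 to 3.16. Both hormones are set against the same untreated arrays, so the values only stand side by side. In the 13, adding estradiol to Dex gave differences of -0.24 to 0.37, 7 of them above 0 and 0 past the threshold (adjusted p from 0.935). The other 6 (Zfp52, Tmem86a, Ttpa, Bnc1, Micall1 and Pim1) stood at -0.64 to 0.29 with Dex, and adding estradiol gave 0.16 to 1.72, above 0 in each. The split uses the Dex arrays, which also enter the latter values. Bnc1 fell with Dex, by 0.64 ± 0.13 (limma, adjusted p = 0.0417), from 6.50 and 6.77 to 6.02 and 5.97, and stood at 6.88 and 7.01 with both hormones.

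The test of the difference between both estradiol effects, the interaction, passed for 1 of 18194 genes (0.0055%), Per1, on the lower side. At an unadjusted p under 0.05 it was above 0 for 523 genes (2.87%) and below for 482 (2.65%). The test uses the E2 arrays from which the 19 genes were picked. Its Dex signals were 9.32 and 9.17 and its Dex+E2 signals 9.16 and 8.84, so estradiol added -0.24 ± 0.13 to Dex against 1.97 ± 0.13 without it, a difference of -2.21 ± 0.18 (limma, adjusted p = 0.00348). Without Dex replicate 1 the call was lost (-2.14, adjusted p = 0.063) and the count was 0. It was 20 when Dex+E2 replicate 1 was dropped and 2 when E2 replicate 1 was. The other 12 genes raised by both hormones also had differences below 0, from -1.49 ± 0.19 (Sphk1) to -0.70 ± 0.13 (Dnajb4). Their adjusted p in the limma interaction ran from 0.0916 (Sphk1) to 0.711 (Klf9), so none passed. These 12 were picked as high with E2 and with Dex against the same untreated arrays. That choice by itself pushes the difference below 0, so the shared sign adds no support. For the 6 not raised by Dex the adjusted p ran from 0.852 to 0.996. For Tmem86a the difference was 0.01 ± 0.25 and for Bnc1 -0.02 ± 0.19.

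Set directly against Dex, estradiol gave lower levels in 7 of the 19 genes, higher levels in 5 and no call in 7 (adjusted p from 0.0564). Over all genes 98 (0.539%) were higher and 112 (0.616%) lower with estradiol than with Dex. Lower than with Dex were Spsb1 (-1.89 ± 0.10), Sphk1 (-1.90 ± 0.13), Pdk4 (-1.13 ± 0.15), Il6ra (-1.07 ± 0.15), Errfi1 (-1.03 ± 0.11), Cdkn1a (-0.72 ± 0.14) and Per1 (-0.69 ± 0.13). Higher were Tmem86a (2.18 ± 0.18), Bnc1 (1.61 ± 0.13), Ttpa (1.59 ± 0.25), Zfp52 (1.59 ± 0.13) and Pim1 (0.98 ± 0.089). Per2, Dnajb4 and Klf9 differed by 0.35 ± 0.11, 0.15 ± 0.091 and -0.08 ± 0.12 without passing, which does not show that the hormones act alike on them. The genes were picked from E2 arrays that this comparison uses. The count of 210 over all genes (1.15%) was 115 when E2 replicate 2 was dropped, and 64 and 74 when Dex replicate 1 or 2 was.

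The genes just outside the threshold also stood on either side of untreated with Dex. Foxred2, an oxidoreductase of the endoplasmic reticulum, was 0.96 ± 0.15 higher with estradiol (adjusted p = 0.0559), Zfp36, an mRNA decay factor, 1.00 ± 0.16 (0.0625), Nfkbia 0.85 ± 0.14 (0.0824) and Csrnp1 0.67 ± 0.12 (0.112). These 4 stood 1.35 to 2.10 above untreated with Dex. Neat1, the long non-coding RNA that scaffolds paraspeckles, was 0.67 ± 0.11 higher (adjusted p = 0.0842), from 8.38 and 8.49 to 9.07 and 9.14, and stood at -0.86 with Dex. Synpo, an actin-associated gene, was at 0.93 ± 0.16, Midn at 0.93 ± 0.16 and Gse1 at 0.66 ± 0.12 (adjusted p from 0.106 to 0.133), and stood at -0.24, -0.20 and -0.11 with Dex. In Dex+E2 against Dex these 3 were at 0.92, 0.98 and 0.62, without passing. Another 4 genes at least doubled without passing, named after their values were seen: Kif5c, a kinesin motor gene, 1.37 ± 0.26, F3, tissue factor, 1.07 ± 0.23, Metrnl, a secreted factor, 1.05 ± 0.22, and Acot11, an acyl-CoA thioesterase, 1.01 ± 0.19.

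No gene fell past the threshold. The lower genes with the smallest p-values were Phlda1, -0.57 ± 0.096 (adjusted p = 0.0965), Id3, an inhibitor of basic helix-loop-helix factors, -0.79 ± 0.15 (0.146), Saa4, an apolipoprotein of the serum amyloid family, -0.51 ± 0.096, and Ahr, the aryl hydrocarbon receptor, -0.53 ± 0.10. After them came Zfp36l1 (-0.57), Wnt9a (-0.39), Usp17la (-0.54) and Tsc22d2 (-0.51), with adjusted p up to 0.196. Phlda1 read 11.08 and 11.08 without hormone and 10.59 and 10.42 with estradiol, and Id3 10.37 and 10.63 against 9.79 and 9.63. In each of these 8 genes both E2 arrays lay below both untreated arrays, which 19.5% of all genes show. The 8 were picked by their p-values on these same arrays, so this adds no support. Id3 was also at -0.88 in Dex+E2 against Dex, from 10.11 and 10.05 to 9.43 and 8.97 (adjusted p = 0.186). Phlda1, Id3 and Klf10 (-0.76) passed without either Dex+E2 array, with adjusted p of 0.0369, 0.0187 and 0.0203.

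Of 40 textbook estrogen targets 35 were analysed, without Areg, Rbbp8, C3, Adora1 and Prlr. Of the 35 analysed, 0 passed in limma, against 0.104% of all genes, and the median was 0.00. Without adjustment 3 were higher and 2 lower at limma p under 0.05, against 3.55% and 2.63% of all genes. Both E2 arrays lay above both untreated arrays for 6 of the 35 and below for 9, against 16.6% and 19.5% of all genes. Greb1, a growth regulator and estrogen receptor cofactor, read 5.76 and 5.91 without hormone and 5.83 and 5.91 with it. Pgr, the progesterone receptor, read 4.34 and 4.32 and then 4.47 and 4.18, a dim signal at percentile 16.6 of all genes. Other members were dim too, such as Agr2, Myb and Pkib with mean untreated signals of 3.15, 3.73 and 3.96. Myc, the growth-promoting transcription factor, read 9.80 and 9.99 and then 9.80 and 9.40, and Ccnd1, cyclin D1, 12.97 and 12.97 and then 12.89 and 12.80. The groups overlap for Greb1 and Pgr, touch for Myc and lie apart by under 0.1 for Ccnd1, with Myc and Ccnd1 the lower with estradiol. The members nearest to a call were the mRNA decay factor gene Zfp36l2, 0.61 ± 0.12 (adjusted p = 0.214, and 0.0369 without either Dex+E2 array), the corepressor gene Nrip1, 0.44 ± 0.098 (0.27), the Wnt-induced matricellular gene Ccn5, 0.46 ± 0.11 (0.341), and the coactivator gene Cited2, -0.68 ± 0.17 (0.385).

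Of 32 measured glucocorticoid targets 9 rose and 0 fell, against 0.104% of all genes, with a median of 0.35. In 18 of them both E2 arrays lay above both untreated arrays, against 16.6% of all genes. The list is not independent evidence: 5 members were put on it from earlier results of these arrays, and 4 of the 9 are among them. Without those 5 it had 5 of 27 higher and a median of 0.17. The count of 18 was taken with those 5 on the list. The members did not move alike. Tsc22d3, the glucocorticoid-induced leucine zipper, read 8.79 and 8.95 without hormone and 9.91 and 9.78 with estradiol, 0.97 ± 0.23, and did not pass (adjusted p = 0.341), although it passed in the 4 arrays alone (0.0106) and without either Dex+E2 array (0.0203). Sgk1, a serum- and glucocorticoid-regulated kinase, was at 0.46 ± 0.14 and Fkbp5, a co-chaperone of steroid receptors, at 0.16 ± 0.11. Rgs2 was at 0.21, Dusp1 at 0.24 and Lcn2 at 0.10 with estradiol, while with Dex they stood at 3.21, 2.54 and 2.00.

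Lists of early and inflammatory genes had 0 members past the threshold and more members at a low unadjusted p on the lower side. Of 24 immediate early genes 1 was higher and 6 lower at p under 0.05, with a median of -0.06; Ier3 was at -0.46, Ier5 at -0.51, Fosl1 at -0.38 and Fos at 0.74. Of 32 inflammatory genes 1 was higher and 6 lower (median -0.08), with Ptgs2, Csf2 (-0.33), Plaur (-0.31) and Csf1 (-0.36) nearest to a call. Of 25 TGF-beta, SRF and YAP targets 5 were higher and 8 lower (median -0.04), led by Id3, Klf10, Tgfb2 (0.67) and Pmepa1 (0.36). Of 17 MAPK feedback genes Errfi1 rose and 3 were lower at p under 0.05 (median -0.02), Phlda1 first among them. Of 13 EGF family genes 0 passed and 2 were lower at p under 0.05, Hbegf (-0.28) and Ereg (-0.34), with a median of 0.01. Of 13 interleukin 6 family genes Il6ra rose; Socs3, a feedback inhibitor of cytokine receptors, was at 0.58 (adjusted p = 0.732), and the median was 0.00. Over all genes the shares at this unadjusted p were 3.55% and 2.63%, and 0.104% passed the threshold.

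Of 25 DNA replication and mitosis genes 0 passed and the median was -0.05, with Mki67, a proliferation marker, at 0.25 and Mcm3, a helicase subunit, at -0.22. Of 21 cell cycle inhibitors and p53 targets Cdkn1a rose, while Plk2, a polo-like kinase, was at -0.91 ± 0.20 (adjusted p = 0.239) and Cdkn1b, which encodes p27, at -0.31; the median was 0.05. Of 18 sterol genes and 19 stress genes 0 passed, with medians of 0.01 and -0.01. Of 16 receptor coregulators 0 passed, and their median was 0.00. Of 8 measured genes on a list of KRAB zinc finger neighbours Zfp52 rose and the median was 0.22. This list was chosen with earlier results of these data known, so it does not describe KRAB zinc finger genes at large. Among the cell type markers 0 of 11 luminal, 0 of 10 milk protein, 0 of 16 mesenchymal, 0 of 10 immune cell and 0 of 9 endothelial or adipocyte genes passed (medians -0.02, -0.08, -0.03, -0.03 and -0.04), and of 9 basal markers Bnc1 rose (median -0.02). Over these 6 lists 3 members were higher and 4 lower at an unadjusted limma p under 0.05. Of all genes 3.55% were higher and 2.63% lower at that p, and 0.104% passed the threshold.

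**Figure D4:**
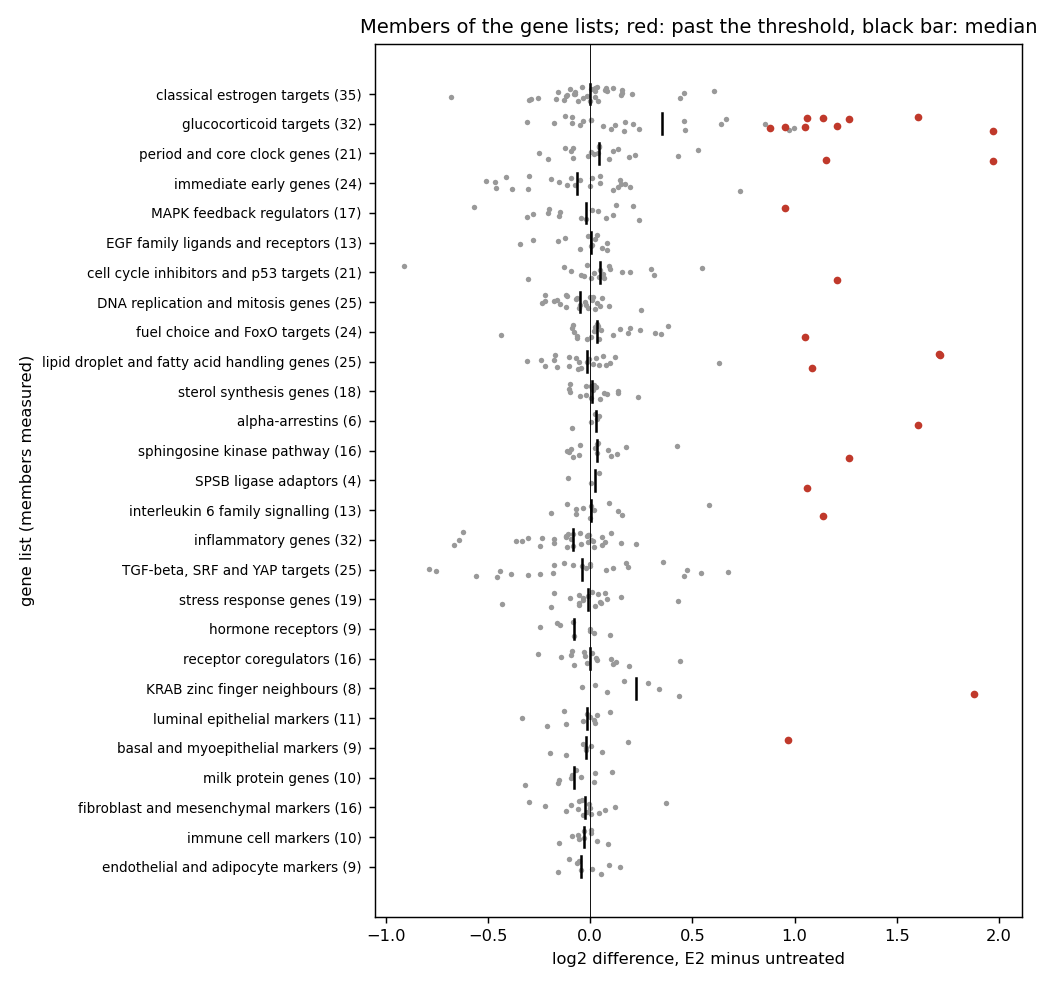
Difference between E2 and untreated cells (log2 units, horizontal) for every measured member of the 27 gene lists (vertical, members measured in parentheses). Red points passed the threshold and black bars are list medians; the glucocorticoid list has 9 red points and a median of 0.35, and the classical estrogen list has 0 red points and a median of 0.00.

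No hormone receptor gene on the list passed the threshold. Esr1, estrogen receptor alpha, read 7.05 and 6.92 without hormone and 6.66 and 7.16 with it, and the groups overlap. Nr3c1, the glucocorticoid receptor, read 9.96 and 9.95 and then 9.95 and 10.00. Of 9 measured hormone receptor genes 0 passed and the median was -0.08, with Gper1, a membrane estrogen receptor, at -0.24 (adjusted p = 0.805). Whether the Esr1 and Nr3c1 signals include transgene RNA was not tested.

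Promoter sequence is shown for the gene with the largest rise that Dex shared (Per1) and for 3 of the 6 that rose with estradiol and not with Dex. Each is the 250 bases before the RefSeq start in mouse build GRCm38.p6, written 5′ to 3′ on the gene's own strand. Capitals mark matches, on either strand, to one arm of an estrogen response element (GGTCA), an E-box (CACGTG) or one arm of a cAMP response element (TGACG).
Per1, plus strand, chr11:69098699-69098948: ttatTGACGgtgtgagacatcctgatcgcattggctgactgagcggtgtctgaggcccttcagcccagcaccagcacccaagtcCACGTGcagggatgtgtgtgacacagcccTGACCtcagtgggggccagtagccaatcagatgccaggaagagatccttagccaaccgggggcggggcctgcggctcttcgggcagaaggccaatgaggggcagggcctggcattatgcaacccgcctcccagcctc
Zfp52, plus strand, chr17:21535289-21535538: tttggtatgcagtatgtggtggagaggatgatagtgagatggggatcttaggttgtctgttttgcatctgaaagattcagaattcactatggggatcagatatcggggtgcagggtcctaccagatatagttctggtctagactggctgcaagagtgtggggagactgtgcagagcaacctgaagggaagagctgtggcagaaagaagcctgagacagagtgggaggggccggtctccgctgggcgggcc
Tmem86a, plus strand, chr7:47050390-47050639: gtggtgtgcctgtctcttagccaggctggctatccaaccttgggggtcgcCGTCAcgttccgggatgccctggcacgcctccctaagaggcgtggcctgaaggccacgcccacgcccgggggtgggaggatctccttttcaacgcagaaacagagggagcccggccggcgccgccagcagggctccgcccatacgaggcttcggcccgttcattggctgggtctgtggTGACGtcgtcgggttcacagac
Bnc1, minus strand, chr7:81992300-81992549: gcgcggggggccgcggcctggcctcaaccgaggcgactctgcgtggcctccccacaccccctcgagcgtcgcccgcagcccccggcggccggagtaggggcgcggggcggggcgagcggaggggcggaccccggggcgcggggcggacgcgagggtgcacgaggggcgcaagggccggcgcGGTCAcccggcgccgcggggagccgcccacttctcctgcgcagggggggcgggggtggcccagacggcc

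The Per1 window shown holds an arm of the cAMP element, an E-box and an arm of the estrogen element that starts 137 bases before its start, Bnc1 an arm of the estrogen element 69 bases before its start, Tmem86a 2 arms of the cAMP element, and Zfp52 none of the letters searched. Per1 has a second RefSeq start, whose window held an arm of the cAMP element and none of the other letters searched. Windows were found for 17 of the 19 genes, 27 in all since some genes have several starts, and some of these overlap. The whole estrogen response element and the whole glucocorticoid response element, each a pair of facing arms 3 bases apart, were in 0 of the 27, and in 0.0639% and 0.387% of all 32851 windows. The arm GGTCA was in 9 of 27 and in 35.2% of all, AGAACA, an arm of the glucocorticoid element, in 1 and in 16.1%, and TGACG in 11 and in 17.8%. The E-box was in 5 and in 6.02% of all windows, and the whole cAMP element (TGACGTCA), which contains the arm, in 1 and in 1.55%. Counted by gene, GGTCA was in 6 of the 17, AGAACA in 1, TGACG in 8 and the E-box in 4. These matches describe letters in short windows and no binding.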

How the data were processed

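RNA of 8 samples was measured on 1 array each, as log2 probe set signals. Per the submitters' processing notes, the deposited log2 values were made with RMA (robust multi-array averaging) in Affymetrix Expression Console; no version is given in the sources used here. RMA removes background, gives all arrays 1 distribution and sums up each probe set's probes, which compresses changes of dim genes. The table holds 45101 probe sets. Per the platform annotation, 34958 have 1 gene symbol, 932 several and 9211 are not listed, and 34754 matched RefSeq (GRCm38.p6, used for names) by Entrez number. For each of 18194 genes the brightest probe set, averaged across the 8 arrays, stood for the gene. Arrays of hormone-treated cells thus entered that choice.

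Groups came from the sample titles. The values were fitted with limma 3.58.1 (R 4.3.3) as 4 group means on 8 arrays, with 4 residual and 6.2 prior degrees of freedom. P-values were adjusted (Benjamini-Hochberg) over all genes, and errors after ± are limma standard errors (median 0.0964). Array number limits the precision. The fit was tested on simulated data.

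Genes named are every gene past the threshold, the 8 higher and 8 lower genes next to it, up to 4 per list with the smallest p, and 11 fixed genes (Greb1, Pgr, Myc, Ccnd1, Esr1, Nr3c1, Tsc22d3, Fkbp5, Sgk1, Lcn2 and Per3). The genes, 27 lists and comparisons were chosen with earlier results of these data known. Of 469 list genes, 31 are not analysed here. Alternatives changed the arrays fitted, probe set rule, normalization, dim-gene filter, prior and replicate block.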

Additional observations from a re-analysis of the deposited data

Results flagged for a closer look

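Per1 was the 1 gene whose response to estradiol differed between cells without and with Dex past the threshold in the test of that difference. The other 12 genes raised by both hormones also had differences below 0, from -1.49 (Sphk1) to -0.70 (Dnajb4), without passing. These 12 were picked on the E2, Dex and untreated arrays that this test uses, so their shared sign adds no support. Estradiol changed Per1 by 1.97 log2 units without Dex and by -0.24 with Dex. Both E2 arrays lay above both untreated arrays, which 16.6% of all genes show. Per1 was picked on these arrays, so this adds no support. The difference between both changes was -2.21 ± 0.18 (limma interaction, Benjamini-Hochberg adjusted p = 0.00348), and that test uses the same arrays. The adjusted p ran from 0.000367 to 0.063 over 15 other settings, and it missed the threshold in 1 of them, without Dex replicate 1. Dex alone put Per1 at 9.32 and 9.17, above the 8.62 and 8.50 of estradiol alone. Groups of 2 arrays are too small to look for single outlying arrays.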

How the results depend on the processing

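Estradiol against untreated called 19 genes. The count was 34 without both Dex+E2 arrays and 35 with a trended and robust prior, and it ranged from 2 to 37 when 1 array was left out. With the 4 arrays alone it was 21, with the mean of probe sets 17, with every probe set 16, with the dim filter 23 and with either other normalization 22, and 12 to 19 of the original genes were among these. The Dex+E2 against Dex count of 2 became 4 with the dim filter or with median centring, 6 with a second quantile normalization and 9 with the trended prior, and ranged from 0 to 81 with 1 array left out. The interaction count of 1 became 2 with the second quantile normalization and 4 with the trended prior, and ranged from 0 to 20. Estradiol against Dex, 210, ranged from 64 to 278. Of 323 fits of the 19 genes 89 lost the call, and 0 of these or of the other named genes' fits reversed a called change. Counts of list members moved by over 1.5 times in 63 of 459 fits. With the replicate number as a block, 17 genes passed, 15 of them shared; the deviations of same-numbered arrays correlated at 0.347 between untreated and E2 but from -0.26 to 0.347 over the 6 pairs of groups, so the numbers were not taken as pairs. Signal over background limits dim genes such as Pgr.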
